A study of Mus musculus with 18 samples.

Results

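The 6 genes Sdc1, Mzb1, Jchain, Ell2, Cd38 and Slamf7 were chosen by name, from the surface markers and secretory machinery of plasmablasts, and all 6 were found among the 16545 genes of the deposited table. Their working label also named class-switch genes. None of the 6 takes part in switching, so the class-switch genes are given as a list of their own. Zbtb24 encodes a zinc finger protein with a BTB domain, and the study deleted it in B cells to follow their development and antibody responses. For the RNA-seq, the B cells were activated by lipopolysaccharide (LPS), a bacterial product that drives mouse B cells through TLR4 to divide and to become antibody-secreting cells. RNA-seq was run on purified splenic B cells before LPS (day 0) and at day 1 and 2 of LPS, with 3 control and 3 Zbtb24 B-CKO libraries at each day and 18 in all. Control mice carried a B cell-specific Cre with intact Zbtb24, and Zbtb24 B-CKO (B-CKO) mice carried the same Cre with Zbtb24 loxp/loxp, both on C57BL/6. By this design, deletion of Zbtb24 exon 2 was limited to the B cell lineage. Each library carried a replicate number, the labels did not say whether a number marked the same mouse at the 3 days, and the age and sex of these mice were not given in the sources used here.

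A B cell that becomes a plasmablast takes up large-scale secretion of antibody. Mzb1 is a co-chaperone of the endoplasmic reticulum (ER) that helps assemble and secrete immunoglobulin. Jchain encodes the joining chain that links IgM or IgA monomers into polymers. Ell2 is an elongation factor that favours the secretory form of the heavy chain transcript. Sdc1 encodes CD138, the heparan sulfate proteoglycan by which plasma cells are sorted. Slamf7 is a SLAM family receptor found on plasma cells and other leukocytes. Cd38 encodes an NAD-consuming ectoenzyme that, in the mouse, is already high on resting B cells and low on germinal centre and many plasma cells, so it is not a plasmablast marker in the way it is in humans.

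Zbtb24, the targeted gene, lay between 37.05 and 49.62 FPKM (fragments scaled to transcript length and to the number mapped) in the control libraries and between 10.53 and 14.33 in the B-CKO libraries at day 0, and the genotypes did not overlap at day 1 or day 2 either. Zbtb24 FPKM also counts fragments from exons outside the deletion. B cell markers dominated each library, with the summed FPKM of 8 of them between 4203 and 5493 at day 0 and between 2241 and 2888 later. Markers of T cells summed to 6.22 to 11.7 FPKM at day 0 and to 1.20 to 2.23 at the later days. Libraries varied most at day 0, where the median SD of log2 values within a group was 0.171 in control and 0.159 in B-CKO cells, against at most 0.085 later.

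In GRCm38, RefSeq places Sdc1 (gene ID 20969) at chr12:8771396-8793716, Jchain (16069) at chr5:88519809-88527897, Ell2 (192657) at chr13:75707484-75772361, Cd38 (12494) at chr5:43868809-43912374 and Slamf7 (75345) at chr1:171632403-171653037. Mzb1 has the gene ID 69816. The deposited values are FPKM with no read counts, so depth is unknown. Differences below were tested with limma on log2(FPKM + 1), with the p-value adjusted over all genes tested by the Benjamini-Hochberg method and 0.05 as the threshold. Fold differences on this scale understate changes in genes at a few FPKM, such as Sdc1. RNA of whole cultures was measured, so fewer plasmablasts and less RNA per plasmablast cannot be told apart.

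The starts of 2 genes with a shared first step but a very different level are shown first. Jchain and Sdc1 both fell from day 0 to day 1 in either genotype, as did Cd38. From day 1 to day 2 the rise of Jchain was called in both genotypes and that of Sdc1 only in control cells. A link between the 2 genes was not tested. The 250 bases before each RefSeq start site are given 5′ to 3′ on the strand of the gene from RefSeq on GRCm38.p6, in lower case with CG dinucleotides, the sites where mammalian DNA is methylated, in capitals.
Jchain, chr5:88527898-88528147, minus strand: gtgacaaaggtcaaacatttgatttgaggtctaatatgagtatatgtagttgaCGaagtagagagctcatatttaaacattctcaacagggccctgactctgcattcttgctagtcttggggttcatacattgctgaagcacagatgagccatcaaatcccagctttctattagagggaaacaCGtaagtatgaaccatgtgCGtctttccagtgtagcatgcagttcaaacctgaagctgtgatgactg
Sdc1, chr12:8771146-8771395, plus strand: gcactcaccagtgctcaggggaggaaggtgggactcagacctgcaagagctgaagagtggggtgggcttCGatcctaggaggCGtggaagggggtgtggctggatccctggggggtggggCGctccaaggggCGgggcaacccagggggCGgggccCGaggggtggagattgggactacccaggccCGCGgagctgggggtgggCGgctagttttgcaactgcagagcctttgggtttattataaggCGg
The Jchain window was 42.0% G and C with 3 CG dinucleotides, and the Sdc1 window was 66.0% G and C with 10. Over the same window of 32851 mouse promoters, the median was 52.4% G and C and 6 CG dinucleotides. Ell2 had the most CG of the 5 windows read, 19 at 61.2% G and C, and Cd38 the fewest, 1 at 48.8%. Slamf7 had 3 at 38%, in a window that lies inside its annotated gene span. Sequence for Mzb1 was not used here. None of 5 motifs, searched on both strands, was in these 5 windows: the octamer ATGCAAAT (in 1.60% of all promoters of this length), the XBP1 core CCACGT (6.91%), the E-box CAGGTG (17.2%), the PRDM1 core GTGAAAG (3.57%) and CAGGACCT, letters searched for ZBTB24 (1.63%). No match says only that these letters are not in these windows.

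Per length, Mzb1 had the highest mean FPKM of the 6 genes and Sdc1 the lowest in every one of the 6 groups of libraries. Mzb1 rose at each step of the culture in both genotypes. In control cells it was 190.75, 149.16 and 145.09 FPKM in replicates 1, 2 and 3 at day 0. At day 1 it was 298.58, 265.54 and 295.96, and at day 2 it was 570.71, 442.08 and 628.51. No control library of one day overlapped with those of another. In B-CKO cells it was 210.55, 164.53 and 192.94 FPKM at day 0, 295.66, 310.43 and 312.32 at day 1, and 583.07, 550.24 and 656.25 at day 2. The days were again apart, while at each day the genotypes overlapped. At day 0, where same-numbered libraries of the 2 genotypes deviated together, each B-CKO library was above the control library of its number. Limma did not call this difference. The mean rose 3.38-fold from day 0 to day 2 in control cells, a log2 difference of 1.75 ± 0.16 (SE, limma adjusted p = 0.00018), and 3.15-fold in B-CKO cells (1.65 ± 0.12, limma adjusted p = 4.9e-05). Each single step was also called, with log2 differences of 0.83 and 0.92 in control cells and 0.70 and 0.96 in B-CKO cells.

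**Figure D1:**
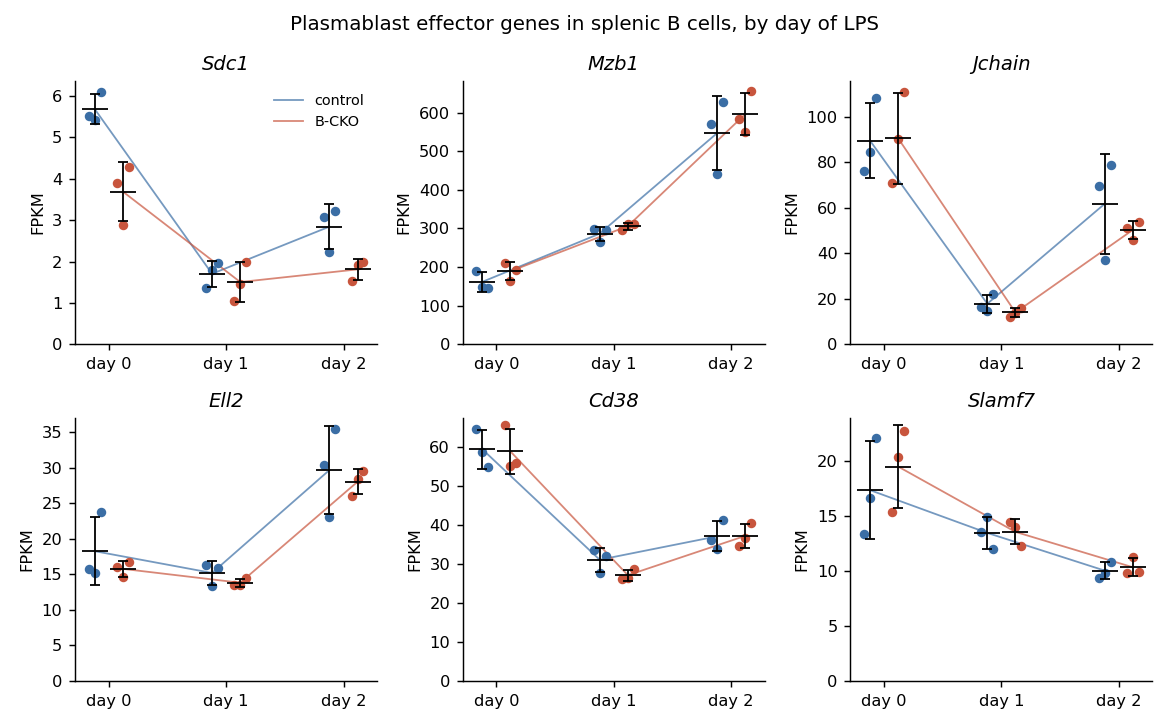
FPKM of the 6 genes by day of LPS, with a separate linear scale for each gene that starts at 0. Points are single libraries, 3 per group, black bars are the mean ± SD, and coloured lines join the means of control and B-CKO cells. Mzb1 climbs from 162 to 547 FPKM in control cells, while Jchain falls from 89.6 to 17.8 and comes back to 61.7.

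Jchain had the deepest trough. In control cells it was 76.1, 84.47 and 108.08 FPKM at day 0, fell to 16.52, 14.63 and 22.24 at day 1, and stood at 69.55, 36.82 and 78.81 at day 2. In B-CKO cells it was 70.9, 90.03 and 110.77 FPKM at day 0, 11.84, 13.93 and 16.06 at day 1, and 50.91, 46.03 and 53.91 at day 2. The day 1 libraries lay below all others in both genotypes, and control day 2 replicate 2 lay well under its 2 partners. From day 0 to day 1 the mean fell 5.03-fold in control cells (log2 difference -2.27 ± 0.19, limma adjusted p = 0.000116) and 6.50-fold in B-CKO cells (-2.60 ± 0.18, limma adjusted p = 4.12e-05). The return from day 1 to day 2 was 3.47-fold in control cells (1.69 ± 0.29, limma adjusted p = 0.00336) and 3.61-fold in B-CKO cells (1.79 ± 0.11, limma adjusted p = 3.55e-05). Day 2 against day 0 was called in B-CKO cells (-0.82 ± 0.16, limma adjusted p = 0.0046) but not in control cells (-0.59 ± 0.29, limma adjusted p = 0.137), where the days overlapped. The control value passed on rescaling to TPM, which makes all libraries sum to the same total, at -0.80 (limma adjusted p = 0.0485). Whether the change from day 0 to day 2 differs between the genotypes was not tested.

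Mzb1 and Jchain, which serve the same product, moved apart at day 1. The ratio of Mzb1 FPKM to Jchain FPKM was between 1.34 and 2.97 in the 6 libraries of day 0, between 13.3 and 24.97 at day 1, and between 7.98 and 12.2 at day 2. The 3 ranges did not overlap. This is a description of levels per length, with no test.

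**Figure D2:**
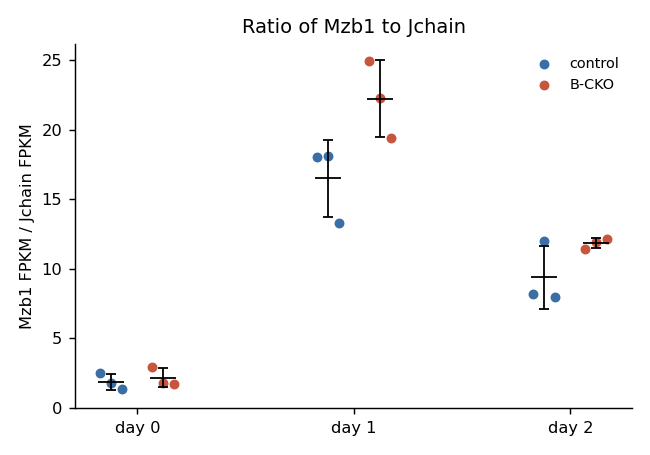
Ratio of Mzb1 to Jchain FPKM in each library by day of LPS, 3 libraries per group, with the mean ± SD as black bars and a linear axis from 0. The ratio is at most 2.97 at day 0 and at least 13.3 at day 1.

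Ell2 changed late. It was 15.8, 15.26 and 23.75 FPKM in control cells at day 0, 16.39, 13.34 and 15.88 at day 1, and 30.46, 23.12 and 35.51 at day 2. In B-CKO cells it was 16.0, 14.58 and 16.76 FPKM at day 0, 13.5, 13.49 and 14.48 at day 1, and 26.09, 28.48 and 29.59 at day 2. Each day 2 library was above each day 1 library, and only control day 0 replicate 3, the highest of the day 0 libraries, reached the range of day 2. From day 1 to day 2 Ell2 rose 1.95-fold in control cells (log2 difference 0.91 ± 0.15, limma adjusted p = 0.00316) and 2.03-fold in B-CKO cells (0.97 ± 0.06, limma adjusted p = 3.3e-05). From day 0 to day 1 the log2 difference was -0.23 ± 0.18 in control cells (limma adjusted p = 0.331) and -0.18 ± 0.07 in B-CKO cells (limma adjusted p = 0.084). The B-CKO value passed on rescaling to TPM (-0.34, limma adjusted p = 0.00544) and without B-CKO day 0 replicate 2 (-0.23, limma adjusted p = 0.0315). Day 2 was above day 0 in control cells by 0.68 ± 0.21 (limma adjusted p = 0.0338) and in B-CKO cells by 0.79 ± 0.08 (limma adjusted p = 0.000261). The control call was lost on rescaling to TPM (0.49, limma adjusted p = 0.0992). It was also lost without control day 0 replicate 1 or 2, or without day 2 replicate 1 or 3, with limma adjusted p-values of 0.0917, 0.112, 0.0989 and 0.111 in that order.

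Sdc1, the gene for CD138, was the one member of which the genotypes stood apart, at day 0 and day 2, and it was also the least abundant. The share of all genes with the genotypes apart in this way is not given here. The separation is thus a description and not a result about Sdc1. At day 0 it was 5.53, 5.42 and 6.11 FPKM in control cells and 3.89, 2.89 and 4.29 in B-CKO cells. Each control library lay above each B-CKO library. At day 1 it was 1.35, 1.79 and 1.97 FPKM in control cells and 1.05, 1.46 and 2.0 in B-CKO cells, with overlap. At day 2 it was 3.08, 2.23 and 3.22 FPKM in control cells and 1.52, 1.91 and 2.0 in B-CKO cells, apart once more. The control mean was 1.54-fold that of B-CKO cells at day 0 and 1.57-fold at day 2. Neither difference passed the test over all genes: the log2 difference was -0.52 at day 0 (95% interval -0.90 to -0.15, limma adjusted p = 1) and -0.45 at day 2 (-0.75 to -0.14, limma adjusted p = 0.428). An exact two-sided permutation test, which ignored the replicate numbers, gave p = 0.1 at both days, the smallest that 3 libraries against 3 allow. Groups that do not overlap always give this value, so it adds nothing to the separation. The change from day 0 to day 1 differed between genotypes by 0.40 (95% interval -0.10 to 0.90, limma adjusted p = 1), and the change from day 1 to day 2 by -0.32 (-0.80 to 0.15, limma adjusted p = 0.806).

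Over time Sdc1 fell from day 0 to day 1, 3.34-fold in control cells (log2 difference -1.31 ± 0.12, limma adjusted p = 0.000186) and 2.45-fold in B-CKO cells (-0.91 ± 0.18, limma adjusted p = 0.00486). From day 1 to day 2 it rose in control cells (0.50 ± 0.13, limma adjusted p = 0.0199), and the B-CKO value was 0.18 ± 0.15 (limma adjusted p = 0.377). The control rise was lost without control day 1 replicate 1 (limma adjusted p = 0.065), day 2 replicate 1 (limma adjusted p = 0.0665) or day 2 replicate 3 (limma adjusted p = 0.07). Day 2 stayed below day 0 in both genotypes, with a log2 difference of -0.81 ± 0.14 in control cells (limma adjusted p = 0.0025) and of -0.73 ± 0.15 in B-CKO cells (limma adjusted p = 0.00538). Ordered by mean level, control day 0 was highest, followed by B-CKO day 0, control day 2, B-CKO day 2, control day 1 and B-CKO day 1. In that order, B-CKO day 0 overlapped with control day 2, B-CKO day 2 with control day 1, and control day 1 with B-CKO day 1, while the other neighbours did not overlap.

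**Figure D3:**
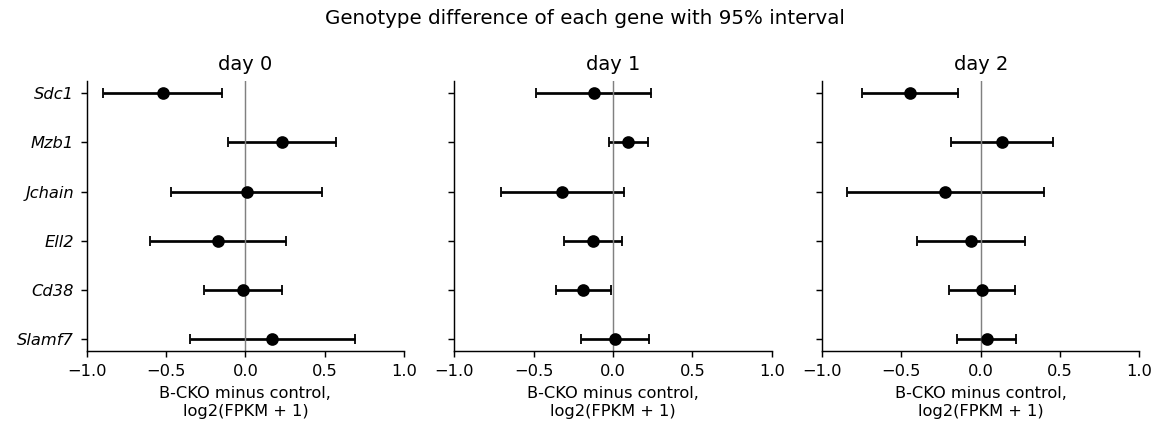
Difference in log2(FPKM + 1) between B-CKO and control cells for each gene at each day, with the 95% interval from limma, 3 libraries per group. The interval of Sdc1 is below 0 at day 0 and day 2 and that of Cd38 at day 1, and none of the 18 differences passed after adjustment over all genes.

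Cd38 went down on activation and only partly returned. It was 64.52, 58.67 and 54.73 FPKM in control cells at day 0, 33.44, 27.65 and 31.98 at day 1, and 36.08, 33.71 and 41.26 at day 2. In B-CKO cells it was 65.4, 55.04 and 55.79 FPKM at day 0, 26.12, 26.44 and 28.64 at day 1, and 34.43, 36.49 and 40.47 at day 2. The 3 days did not overlap within either genotype. The fall from day 0 to day 1 was 1.91-fold in control cells (log2 difference -0.91 ± 0.10, limma adjusted p = 0.000314) and 2.17-fold in B-CKO cells (-1.09 ± 0.08, limma adjusted p = 6.11e-05). From day 1 to day 2 Cd38 rose in B-CKO cells (0.44 ± 0.07, limma adjusted p = 0.0017), and the control value was 0.25 ± 0.09 (limma adjusted p = 0.071). The control value passed with genes under a mean of 1 FPKM left out (limma adjusted p = 0.0205) and with median ratio scaling (limma adjusted p = 0.0416). The difference between these 2 changes was 0.19 (95% interval -0.08 to 0.47, limma adjusted p = 0.806). Day 2 stayed below day 0, with a log2 difference of -0.67 ± 0.10 in control cells (limma adjusted p = 0.00135) and of -0.65 ± 0.10 in B-CKO cells (limma adjusted p = 0.00121). At day 1 the control mean was 1.15-fold that of B-CKO cells, with overlap (log2 difference -0.19, 95% interval -0.36 to -0.01, limma adjusted p = 0.274).

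Slamf7 drifted down. It was 13.34, 16.65 and 22.14 FPKM in control cells at day 0, 13.54, 14.92 and 11.97 at day 1, and 9.41, 9.86 and 10.87 at day 2. In B-CKO cells it was 15.41, 20.4 and 22.75 FPKM at day 0, 14.45, 13.98 and 12.28 at day 1, and 9.83, 11.28 and 9.94 at day 2. The day 0 libraries were the most scattered, and the day 2 libraries lay below all the others. At day 0 each B-CKO library was above the control library of its number, a difference that limma did not call. From day 1 to day 2 it fell in control cells (log2 difference -0.39 ± 0.09, limma adjusted p = 0.0105) and in B-CKO cells (-0.36 ± 0.08, limma adjusted p = 0.00905). With the spread shared over all 18 libraries neither passed (limma adjusted p = 0.0851 and 0.102). From day 0 to day 1 the B-CKO value was called (-0.48 ± 0.15, limma adjusted p = 0.0292) and the control value was not (-0.32 ± 0.18, limma adjusted p = 0.186). The difference between these changes was -0.16 (95% interval -0.72 to 0.40, limma adjusted p = 1). The B-CKO call was lost with median ratio scaling (limma adjusted p = 0.0755), and without B-CKO day 0 replicate 2 (0.0908) or 3 (0.0749) or day 1 replicate 1 (0.0576), 2 (0.071) or 3 (0.0991). The control value passed without control day 0 replicate 1 (-0.49, limma adjusted p = 0.0385). Day 2 was below day 0 in control cells (-0.71 ± 0.18, limma adjusted p = 0.0136) and in B-CKO cells (-0.84 ± 0.15, limma adjusted p = 0.00276). The control call was lost without control day 2 replicate 1 (limma adjusted p = 0.052).

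**Figure D4:**
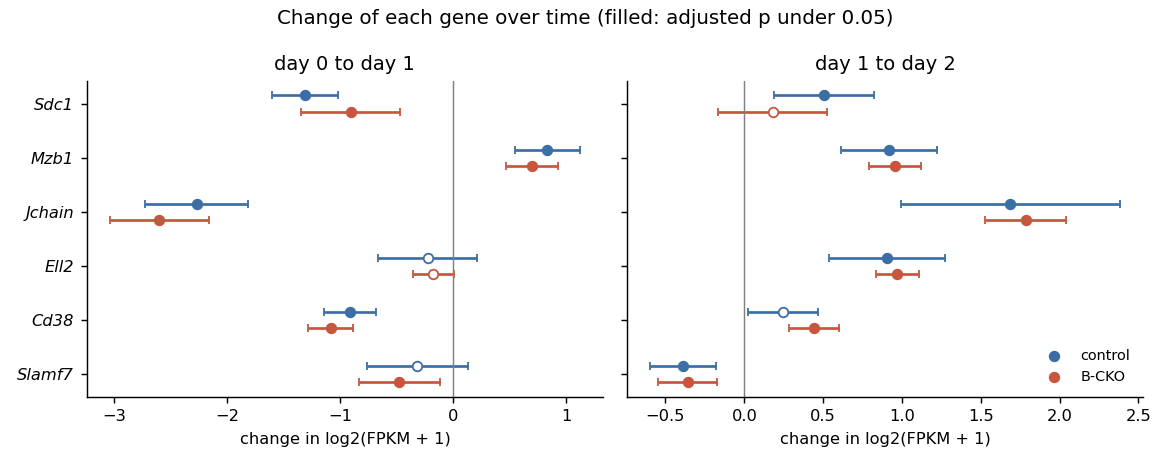
Change in log2(FPKM + 1) from day 0 to day 1 and from day 1 to day 2 for each gene, with the 95% interval from limma, 3 libraries per day, in control and B-CKO cells. Filled points passed at an adjusted p under 0.05 and open points did not. Jchain, Sdc1 and Cd38 fall in the first step while Mzb1 rises, and in the second step Slamf7 is the one gene below 0.

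The 6 genes did not follow one programme of change. In control cells 1 rose and 3 fell from day 0 to day 1, where 57.4% of all genes tested were called. From day 1 to day 2, 4 rose and 1 fell, against 44.9% of all genes called, and from day 0 to day 2, 2 rose and 3 fell, against 56.8%. In B-CKO cells 1 rose and 4 fell in the first step (59.8% of all genes called), 4 rose and 1 fell in the second (45.7%), and 2 rose and 4 fell over both (57.6%). With so many genes moving, the share of the 6 that passed is not a result about them. The median log2 difference of the 6 was -0.62 and then 0.71 in control cells, against -0.02 and 0.00 over all genes tested.

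Between genotypes, limma called 0 of the 6 genes at each day. It called 0% of all genes at day 0, 0.0993% at day 1 and 0.046% at day 2. That background moved with the filter on low values: the 15 genes called at day 1 went to 388 when only genes that averaged 1 FPKM or more were tested. At an unadjusted p under 0.05, 1 of the 6 passed at each day, namely Sdc1 at day 0, Cd38 at day 1 and Sdc1 at day 2, where 2%, 16.3% and 7.71% of all genes tested did so. Genotype differences in the change from day 0 to day 1 and from day 1 to day 2 were called by limma in 0 of the 6 genes and in 0% and 0% of all genes, and at an unadjusted p under 0.05 in 0 of the 6, against 2.89% and 7.31% of all genes. The intervals show what 3 libraries a group can resolve. At day 2 the log2 difference of Mzb1 was 0.14 (95% interval -0.19 to 0.46), that of Ell2 was -0.06 (-0.40 to 0.28), that of Cd38 was 0.01 (-0.20 to 0.21), that of Slamf7 was 0.04 (-0.15 to 0.22), and that of Jchain was -0.22 (-0.84 to 0.40), the widest of the 6. For Jchain that value was -0.55 without control day 2 replicate 2, -0.10 without replicate 1 and -0.01 without replicate 3 (limma adjusted p of 0.35, 0.948 and 0.991). The control mean of Jchain was 1.28-fold that of B-CKO cells at day 1, with overlap (log2 difference -0.32, limma adjusted p = 0.386).

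At day 2 the control libraries differed among themselves in the same direction for most of the 6 genes. Control day 2 replicate 2 was the lowest of its group for 5 of them, and control day 2 replicate 3 was the highest for all 6. B-CKO day 2 replicate 3 was the highest of its group for 5 of 6. Markers of T and NK cells fell after day 0. In control cells 8 of 8 T cell markers and 5 of 6 NK cell markers tested were called lower at day 1 than at day 0. In those cells the T cell sum was between 6.22 and 11.7 FPKM at day 0 and between 1.95 and 2.10 at day 1, and the NK cell sum between 8.63 and 14.7 and then between 0.50 and 0.68. The NK markers Ncr1 and Klre1 were listed at 0 in the control libraries of day 1. Erythroid markers summed to 7.96 to 27.0 FPKM in control cells at day 0 and to 0.38 to 4.02 at day 1. Among 4 markers of plasmacytoid dendritic cells, the sum was 8.96 to 11.8 FPKM in control cells at day 0 and 4.21 to 5.07 at day 1, where Pacsin1 fell from 9.47 to 2.08 and Cox6a2 rose from 0.13 to 2.26. Among 8 myeloid markers the middle library was at 7.17 FPKM at day 0 and 5.25 at day 1, and Itgam rose from 0.98 to 2.42. The part of these cells in the fall of Jchain, Sdc1, Cd38 and Slamf7 was not tested.

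Genes of the same pathways, from lists chosen by function, were counted beside all genes tested, of which 26.7% rose and 30.7% fell from day 0 to day 1 in control cells and 20.1% rose and 24.8% fell from day 1 to day 2. In B-CKO cells these shares were 27.5% and 32.3% in the first step and 21.7% and 24% in the second. Of 24 other plasma cell genes, 8 rose and 8 fell from day 0 to day 1 in control cells, and 16 rose and 3 fell from day 1 to day 2, with a median log2 difference of 0.71. Cxcr4, the chemokine receptor that holds plasma cells in bone marrow, fell from 350 ± 162 to 8.05 ± 0.51 FPKM (mean ± SD, n = 3) and was at 20.1 ± 2.94 on day 2. Tnfrsf13b, which encodes TACI, a receptor for BAFF and APRIL, rose from 51.6 ± 12.5 to 184 ± 2.55 FPKM on day 1. In B-CKO cells the counts were 7 higher and 10 lower in the first step and 16 higher and 4 lower in the second.

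Among the listed partners of Mzb1 in immunoglobulin assembly and ER folding, most but not all were called higher at day 1 than at day 0. Of 19 genes, 15 rose and 2 fell from day 0 to day 1 in control cells (median 0.91), and 10 rose and 3 fell from day 1 to day 2 (median 0.27). Ero1a, an oxidase that recharges protein disulfide isomerase, climbed from 7.997 to 16.46 to 39.91 FPKM on the means of control cells. Lman1, a cargo receptor from the ER to the Golgi, rose from 11.8 to 32.4 FPKM in the first step. Dnajb9, a cofactor of the chaperone BiP, went the other way, from 137 to 17.95 FPKM (log2 difference -2.86 ± 0.11, limma adjusted p = 9.02e-06). In B-CKO cells 16 rose and 2 fell in the first step.

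**Figure D5:**
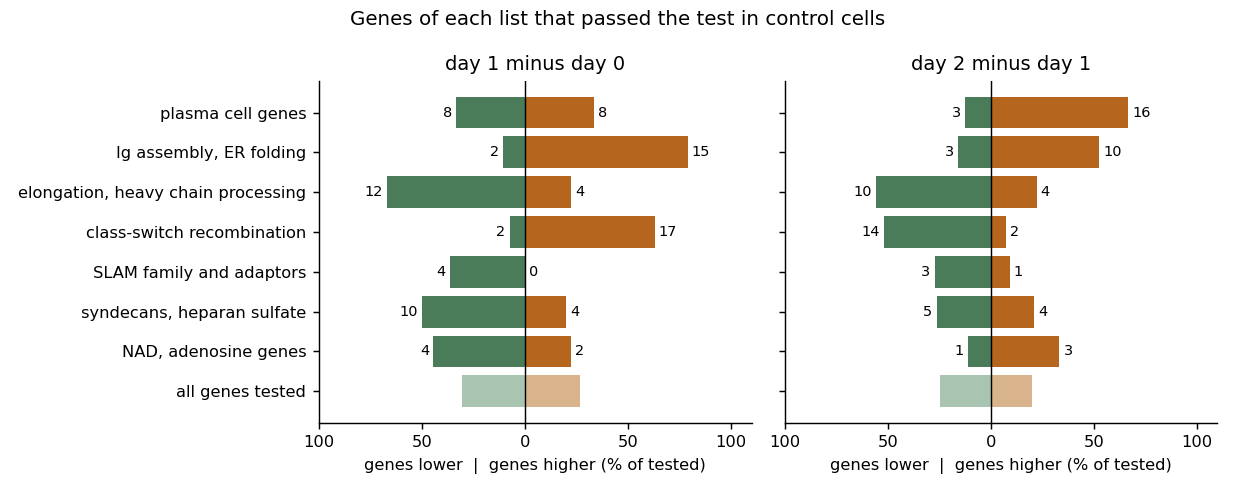
Share of the genes tested in each list that were higher (brown, to the right) or lower (green, to the left) at an adjusted p under 0.05 in control cells, from day 0 to day 1 and from day 1 to day 2, with the number of genes at each bar and all genes tested in pale colours. ER folding and class-switch genes are mostly higher at day 1 (15 of 19 and 17 of 27), and plasma cell genes at day 2 (16 of 24).

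Around Ell2, the list of elongation factors and heavy chain processing genes mostly fell. Of 18 genes, 12 fell and 4 rose from day 0 to day 1 in control cells (median -0.58), and 10 fell and 4 rose from day 1 to day 2 (median -0.13). Ell3, a relative of Ell2 in the same family, dropped from 42.1 to 5.69 to 1.42 FPKM while Ell2 went from 15.2 to 29.7 in the second step. Eaf2, a binding partner of ELL proteins, rose from 27.9 to 54.3 FPKM from day 1 to day 2 (log2 difference 0.93 ± 0.09, limma adjusted p = 0.000318). Cstf2, a polyadenylation factor that acts on the secretory heavy chain site, rose from 16.2 to 33.6 FPKM in the first step.

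Genes related to the surface members were counted beside the 26.7% of all genes that rose and the 30.7% that fell in the first step in control cells. Of 20 genes tested for syndecans and heparan sulfate synthesis, 4 rose and 10 fell in the first step in control cells. Sdc3 rose from 2.36 to 11.9 FPKM as Sdc1 fell, and Sdc4, the most abundant syndecan of these cells, went from 86.6 to 50.2 and back to 78.9. Of 11 SLAM family genes and adaptors, 0 rose and 4 fell in the first step. Of these 4, Cd84 had the largest change in log2(FPKM + 1), from 32.8 to 15.2 FPKM. At an unadjusted p under 0.05 the same number, 4, passed in limma. Of 9 tested genes of NAD and adenosine metabolism, which hold ectoenzymes, enzymes inside the cell and a receptor, 2 rose and 4 fell. Bst1, the closest relative of Cd38, was at 0.76 FPKM at day 0 and 0.11 at day 1.

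Class-switch recombination swaps the constant region of the heavy chain through DNA breaks made in an activated B cell and then joined. Of 28 listed genes 27 were in the table, and 17 rose and 2 fell from day 0 to day 1 in control cells (median 0.75), while 2 rose and 14 fell from day 1 to day 2 (median -0.23). Batf, a transcription factor needed for class switching, rose from 11.5 to 181 FPKM in the first step. Ung, the glycosylase that removes uracil from DNA during switching, fell from 56.1 to 27.4 FPKM in the second. The 12 immunoglobulin constant region genes looked for were not analysed here, so switching itself was not measured. At each day limma called 0 of the 27 genes of the list between genotypes (0, 11 and 3 at an unadjusted p under 0.05 at day 0, 1 and 2, where 2%, 16.3% and 7.71% of all genes passed). In the other 6 lists limma likewise called 0 genes between genotypes at each day, with 0 to 7 per list at an unadjusted p under 0.05.

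The genes with the most similar pattern to each member were found by Pearson's r of log2(FPKM + 1) across all 18 libraries, over 9997 genes that averaged 1 FPKM or more. The points share their day and genotype, so r is a description with no test. Sdc1 was closest to Sirpa (r = 0.94), Fes (0.94) and Rasal1 (0.94). Mzb1 was closest to Mtch1 (0.99), Krtcap2 (0.99) and Glrx (0.99). Jchain was closest to St6gal1 (0.98), Sdc4 (0.98) and Entpd1 (0.97). Ell2 was closest to Edem1 (0.95), Palm (0.94) and Glipr1 (0.94). Cd38 was closest to Evl (0.99), Gpsm3 (0.99) and Serpinb1a (0.99). Slamf7 was closest to Rnf138 (0.97), Eif5 (0.96) and Ifrd1 (0.96). Among the 6 themselves, Sdc1, Jchain and Cd38 went together (r of 0.82 to 0.88), Mzb1 went with Ell2 (0.71), and Mzb1 and Slamf7 ran opposite (-0.88).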

How the data were processed

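RNA of purified splenic B cells was sequenced in 18 libraries, 3 per genotype and day. According to the methods and labels, the authors mapped paired reads to mm10 with bowtie2, used Cufflinks and RSEM for abundance, and deposited FPKM values (normalised for transcript length and library size) with 2 decimals. The labels also name BWA. Versions are not given in the sources used here, and labels and methods name different sequencers. Of 16545 gene IDs, 16512 matched RefSeq symbols. FPKM summed to 453150 to 563456 per library, 0 pairs of libraries were identical, and 0 columns lacked a sample.

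From the deposited FPKM, log2 values were computed with a pseudocount of 1 and tested with limma 3.58.1 (lmFit, eBayes with a trend, R 4.3.3), with genes at 0 in all libraries compared left out. Each genotype or time comparison used its 6 libraries, and differences of change used the 12 libraries of both days. The script was run on simulated data with known changes in genes that averaged 1 FPKM or more. That simulation held no counting error and no pairing of replicates, and its outcome is not reported here. Exact permutation tests were two-sided. Alternatives were a pseudocount of 0.1, only genes that averaged 1 FPKM or more, TPM in place of FPKM, median ratio scaling, one fit of all 18 libraries, the replicate number as a block, and leaving out each library. Rescaling to TPM shifted the median of genes of at least 1 FPKM by -0.15 from day 0 to day 1 and by -0.20 from day 0 to day 2 in control cells, and by -0.15 and -0.21 in B-CKO cells.

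Same-numbered libraries of the 2 genotypes deviated together at day 0 (correlations 0.854, 0.467 and 0.789), so the data, not the labels, pair them there. They also did so between B-CKO day 1 and day 2 (0.126, 0.183 and 0.117). With the block no member's call changed in these comparisons. The 6 genes, pathway lists and marker lists were chosen with earlier results of these data known. Beyond the members, the genes named from a list were the 4 with the lowest p-value in each comparison, from which a few are described. By the methods, each replicate was a separate mouse, so p-values measure the spread between mice within a group. Some genes of the lists are not reported here by name.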

Additional observations from a re-analysis of the deposited data

How the results depend on the processing

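The 36 time results kept their direction in all 468 alternatives, and 24 of the 30 called ones stayed called in each. Calls that changed stand beside their results, or below for the block. The number of the 6 genes called from day 0 to day 2 in control cells ranged from 3 to 5 without single libraries. Genotype values near 0 changed sign. Rescaled to TPM, B-CKO minus control was -0.0045 for Jchain at day 0, -0.00037 for Slamf7 at day 1 and -0.018 for Cd38 at day 2. Without single libraries, the ranges at day 0 were -0.147 to 0.171 for Jchain, -0.283 to 0.0197 for Ell2 and -0.0931 to 0.0467 for Cd38. At day 1 they were -0.261 to 0.014 for Sdc1 and -0.0655 to 0.0824 for Slamf7. At day 2 they were -0.00967 to 0.244 for Mzb1, -0.224 to 0.075 for Ell2, -0.0571 to 0.0849 for Cd38 and -0.0191 to 0.0918 for Slamf7. For the change from day 0 to day 1 they were -0.144 to 0.159 for Ell2 and -0.339 to 0.00628 for Slamf7, and from day 1 to day 2 -0.106 to 0.148 for Mzb1, -0.232 to 0.307 for Jchain, -0.100 to 0.199 for Ell2 and -0.0435 to 0.104 for Slamf7. Deviations of same-numbered control and B-CKO libraries correlated at 0.104, 0.200 and 0.091 at day 1, and at -0.037, 0.216 and 0.230 at day 2. Groups were taken as paired only where each such value was over 0.1. Day 1 fell just short of that limit, and day 2 also did not meet it. With the replicate block and a mean of at least 1 FPKM, 1 member, Jchain, was called between genotypes at day 1 (-0.32, limma adjusted p = 0.0482), and with the replicate block alone all genes called at day 1 went from 15 to 5. With the block, Cd38 from day 1 to day 2 in control cells had a limma adjusted p of 0.0302, Slamf7 from day 0 to day 1 in B-CKO cells 0.0626, and, with the filter as well, Jchain from day 0 to day 2 in control cells 0.0229. All genes called between genotypes ranged over the alternatives from 0 to 25 at day 0, 5 to 704 at day 1 and 0 to 116 at day 2. Depth was unknown, so counting error of low genes such as Sdc1 could not be set.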
